A study of Homo sapiens with 4 samples.

Results

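The apoptosis machinery of HuCCT1 cells was followed through 38 genes: BCL2 family survival proteins (guardians), BH3-only proteins, the membrane effectors, death receptors with their ligand and adaptors, caspases with the apoptosome, and the inhibitor of apoptosis proteins (IAPs) with their antagonists. The genes were chosen by name, and each took the mean of the array rows whose platform annotation gives that symbol alone. This gave values for 34 of the 38 genes, out of 18377 genes measured in all. BCL2L2 and TNFRSF10C lay only on rows that carry several symbols, and RIPK1 and BIRC3 were not analysed here.

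HuCCT1 is an established human cholangiocarcinoma (bile duct cancer) cell line. The study has 4 groups of 1 Affymetrix Human Gene 1.0 ST array each. They are an untreated culture, a VPA culture, a GEM culture and a culture under both agents, labelled GEM_VPA and called the combination here. The abbreviations are read in their usual sense: VPA as valproic acid, which inhibits histone deacetylases, and GEM as gemcitabine, an analogue of deoxycytidine. All groups are the same line, and the sources used here give no dose, exposure time or culture batch. The values are log2 intensities, so a difference of 1 is a 2-fold difference. With 1 array per group there is no replicate error, and differences between arrays are given as sizes without a test.

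Apoptosis runs along a pair of routes. In the mitochondrial route, BH3-only proteins sense stress, bind the guardians and release or activate BAX and BAK1, which permeabilise the outer mitochondrial membrane; cytochrome c then assembles with APAF1 and CASP9 into the apoptosome. In the receptor route, FAS or the TRAIL receptors recruit FADD and CASP8, and CASP8 can cleave BID to engage the mitochondria. The tumour suppressor p53 transcribes several genes of both routes, among them FAS, TNFRSF10B, PMAIP1, BBC3 and BAX. The IAPs restrain caspases, and DIABLO and HTRA2 counteract the IAPs.

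The 4 arrays had medians between 7.87 and 7.92 over 28869 rows. The untreated and combination arrays lay close to each other, with a correlation of 0.996 and a robust SD of log2 differences over genes of 0.147, as did the VPA and GEM arrays, with 0.996 and 0.158. The remaining pairs correlated between 0.984 and 0.987, with robust SDs of 0.253 to 0.270. The labels are used as given, and each order of arrays below shares this pairing. No value here checks which array received which treatment, and exchanged labels would change the meaning of each ratio below. Of 8 bile duct epithelial markers, 7 were measured and all 7 were at or above the array median on at least 1 array, EPCAM at 12.63 to 12.84 among them. Their summed level was 84.7 on the untreated, 89.3 on the VPA, 89.2 on the GEM and 84.3 on the combination array. Of 7 measured leukocyte markers, PTPRC, CD3E, CD3D, MS4A1 and CD14 lay below the array median everywhere and CD68 and LYZ did not. The summed level of these 7 was 49.5 untreated, 51.2 with VPA, 51.6 with GEM and 47.9 with the combination. Both sums were higher on the VPA and GEM arrays than on the other two. Among the bile duct markers, KRT7, KRT19, KRT8, KRT18, CDH1 and SOX9 each shared this order, and EPCAM alone did not. Among the measured leukocyte markers, all but PTPRC and CD3D shared it. KRT7 was at 9.53, 11.50, 11.14 and 8.93 and CD68 at 10.05, 10.99, 10.98 and 9.70 on the untreated, VPA, GEM and combination arrays, while EPCAM was lower on the single-drug arrays. The median of the bile duct markers was the EPCAM value on every array, 12.83, 12.68, 12.63 and 12.84 in that order. The median of the leukocyte markers was 7.08, 6.79, 6.94 and 6.69. The part of these markers in the results was not tested.

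Across the 34 genes, the arrays given 1 drug carried more transcript of several death receptor, BH3-only and effector genes than the untreated array, while the combination array stayed near untreated. FAS, a death receptor, was the only gene past 2-fold: it was 2.34-fold higher with GEM than untreated and 2.16-fold lower with the combination than with GEM. The BH3-only genes PMAIP1 (NOXA) and BCL2L11 (BIM) and the TRAIL receptors TNFRSF10B and TNFRSF10D followed, between 1.57-fold and 1.66-fold higher with GEM. The 3 membrane effectors were all higher with each drug alone. BCL2 and BCL2L1 were lower with each drug alone. Some genes did not follow this split between death-promoting and survival genes. CASP6, CASP2 and DIABLO, which promote death, were lower with each drug alone. The survival gene BIRC2 was higher, as was TNFRSF10D, which is a decoy receptor. CFLAR, which encodes a CASP8 inhibitor, was higher in the mean of its rows.

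A gene was counted as past a fold limit when its ratio reached the limit and the brighter of the compared arrays had it at or over that array's median; the 2-fold limit is the study's own. Of the 34 genes, 30 reached that level on at least 1 array, and BCL2A1, BMF, TNFSF10 and CASP10 did not. With GEM over untreated, 1 of the 30 genes at level was past 2-fold, against 4.49% of all genes at level. With the combination over GEM it was again 1 of 30, against 5.38%. VPA over untreated gave 0, against 4%, the combination over VPA 0, against 3.16%, the combination over untreated 0, against 0.148%, and VPA over GEM 0 of 29, against 0.305%. At 2-fold, then, the share of apoptosis genes was near or below the background in each comparison.

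A lower limit of 1.5-fold gave more genes and a single direction. With GEM over untreated, FAS, PMAIP1, BCL2L11, TNFRSF10B and TNFRSF10D were past it, all 5 higher, and 0 genes were past it on the lower side. Over all genes at level, 17% were past 1.5-fold either way, 5.95% higher and 11.1% lower. With the combination over GEM, the same 5 genes were past 1.5-fold lower, against 6.56%, and 0 were higher, against 11.9% (18.5% either way). Both ratios use the 1 GEM array, and the combination array lay near untreated. The second count is thus no separate finding. With VPA over untreated only FAS was past 1.5-fold higher, against 6.64%, and 0 genes were lower, against 10.4% (17% either way). With the combination over VPA, FAS and TNFRSF10D were past 1.5-fold lower, against 5.91%, and 0 genes were higher, against 9.17% (15.1% either way). With the combination over untreated 0 genes were past 1.5-fold, against 1.6%, and with VPA over GEM also 0, against 2.3%. At 3-fold, 0 genes passed with GEM over untreated, against 0.707%, and 0 with the combination over GEM, against 0.902%.

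**Figure D1:**
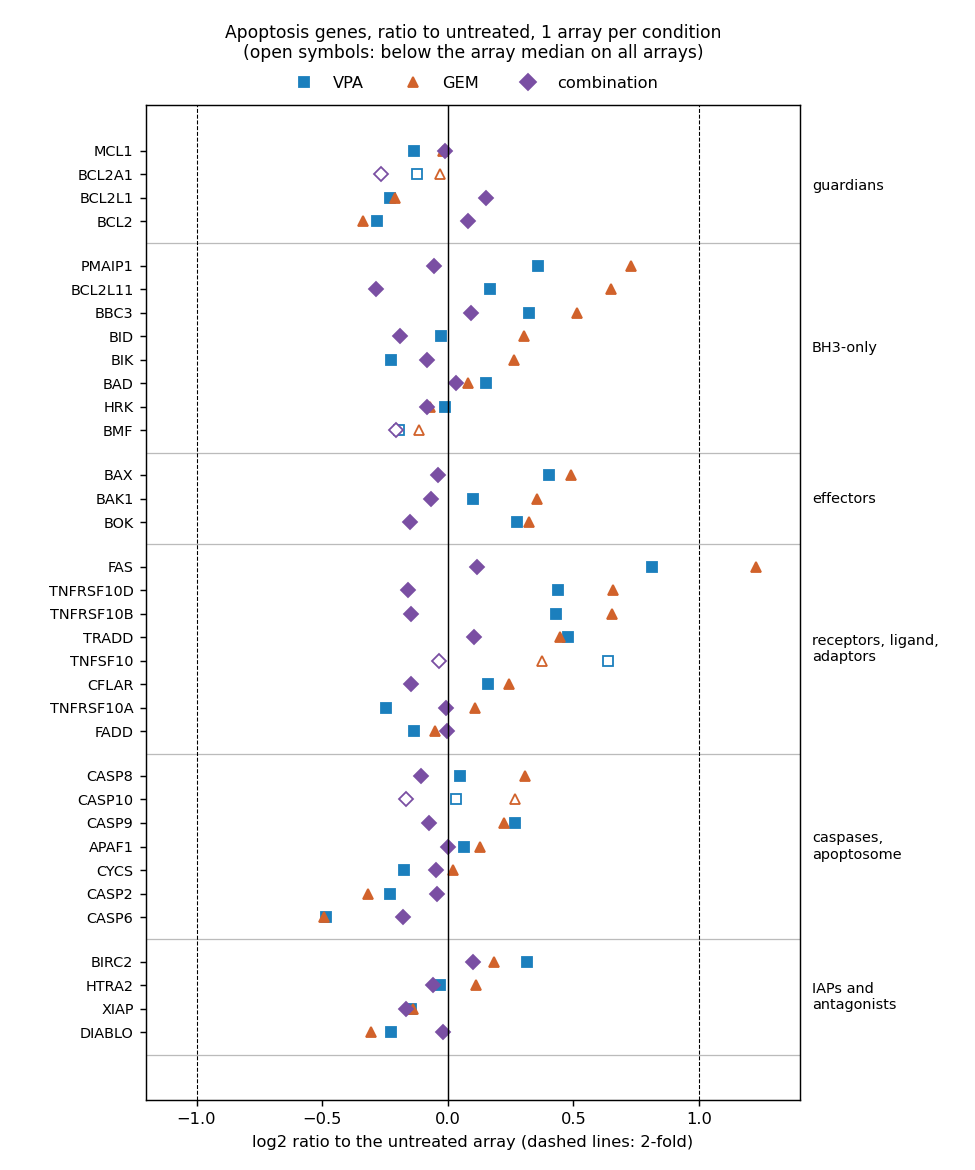
Log2 ratio to the untreated array (x axis) for each of the 34 measured genes (y axis), grouped by role and ordered within a group by the GEM value; squares are VPA, triangles GEM and diamonds the combination, with 1 array each and no error bars. FAS at 1.23 with GEM is the only point beyond a dashed 2-fold line, and the diamonds lie between -0.29 and 0.15.

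Medians over the 34 genes carried the same picture at small size. The median log2 ratio was 0.20 for GEM over untreated, where 23 genes were above 0 and 11 below. The median over all 18377 genes was -0.01 there, with 8924 genes above 0. For VPA over untreated the median was 0.04, with 18 genes above 0 and 16 below, so no direction was visible. Over all genes it was -0.01, with 8843 of 18377 above 0. For the combination over untreated the median of the 34 was -0.06, with 27 below 0, beside -0.03 and 10561 of 18377 over all genes. For the combination over GEM the median was -0.27 with 27 genes below 0, beside -0.02 and 9693 of 18377 over all genes. For the combination over VPA it was -0.15 with 24 below 0, beside -0.01 and 9511 of 18377. VPA and GEM set directly against each other gave -0.09, with 24 of 34 genes lower on the VPA array, beside -0.01 and 9572 of 18377. Ratios that share an array are not independent of each other.

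The order of the 4 arrays was then read gene by gene. In 18 of 34 genes (52.9%) both the VPA and the GEM array lay above both the untreated and the combination array, against 30.6% of all measured genes. In 7 genes (20.6%) both lay below, again against 30.6%. Among the 30 genes at level the counts were 16 above, against 31%, and 7 below, against 39.1%. All 3 effectors were in the first class, as were 4 of 8 BH3-only genes, 6 of 8 genes of the receptor group and 4 of 7 caspase and apoptosome genes. Of the 4 measured guardians, 0 were in the first class and 3 in the second. No margin was required. MCL1 was below by 0.01 and FADD by 0.05, and BAD, BAK1, CASP8, CASP10, APAF1 and BIRC2 were above by 0.03 to 0.10. These gaps are under the robust SD of the closest array pair, 0.147. A CFLAR row also lacked the order of the gene's mean, with VPA at 9.089 and untreated at 9.145. This order was examined after the values were seen.

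**Figure D2:**
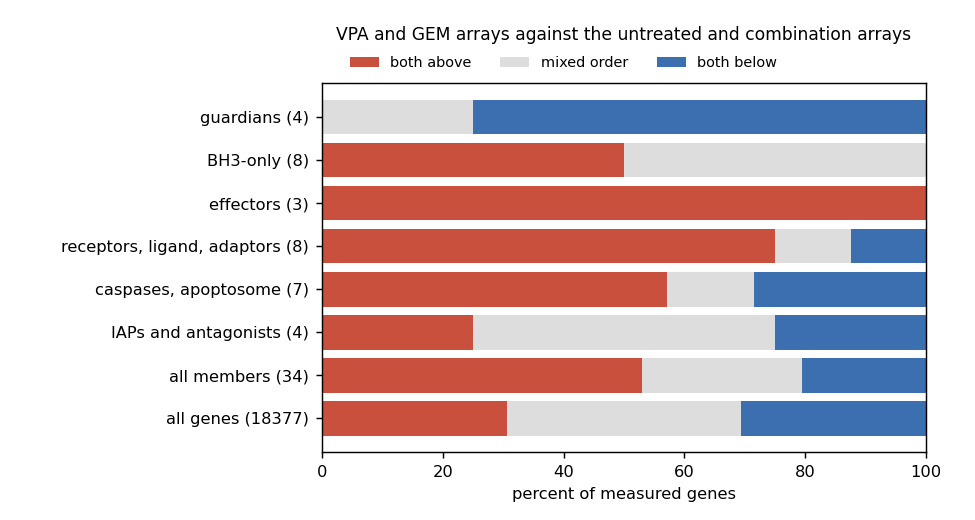
Percent of measured genes (x axis) whose VPA and GEM values were both above (red), both below (blue) or not separated from (grey) the untreated and combination values, for each role, for the 34 genes and for all 18377 genes; the number measured stands in brackets. The effectors are red throughout and the guardians hold no red, while all genes split into 30.6% red and 30.6% blue. No margin between the arrays was required.

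Among the death receptors, FAS varied most. Its level was 9.96 untreated, 10.77 with VPA, 11.19 with GEM and 10.08 with the combination. Both single-drug arrays were thus above the other two, by at least 0.70, and GEM was above VPA. The log2 ratio to untreated was 0.81 with VPA, 1.23 with GEM and 0.12 with the combination. Of 11593 genes at level, 84 had a larger increase with GEM than FAS, and 396 of 11611 had a larger increase with VPA.

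The TRAIL receptors did not share one pattern. TNFRSF10B, which carries a death domain, was at 11.02 untreated, 11.45 with VPA, 11.67 with GEM and 10.87 with the combination. TNFRSF10D, a decoy receptor with a truncated death domain, was at 11.12, 11.56, 11.78 and 10.97 in the same order. The ratios of the pair differed by little, 0.43 and 0.44 with VPA, 0.65 and 0.66 with GEM and -0.14 and -0.16 with the combination. TNFRSF10A, the other death domain receptor, was at 9.96, 9.71, 10.07 and 9.95, so VPA was its lowest and GEM its highest array. These receptors are related in sequence and lie together on chromosome 8, and whether their array probes cross-react was not tested. TNFSF10, the ligand TRAIL, was below the array median on every array, at 5.95 untreated, 6.58 with VPA, 6.32 with GEM and 5.91 with the combination. The ligand was thus highest with VPA.

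The adaptors differed as well. TRADD, the adaptor of TNF receptor 1, was at 9.82 untreated, 10.30 with VPA, 10.27 with GEM and 9.92 with the combination, higher on both single-drug arrays. FADD, the adaptor of FAS and the TRAIL receptors, stayed between 10.02 and 10.15 on the 4 arrays. CFLAR, which encodes the CASP8 inhibitor FLIP, had a pair of rows that disagreed: 1 row gave 0.38 with VPA and 0.45 with GEM, the other -0.06 and 0.04. Their mean gave 0.16 and 0.24, so the value of CFLAR rests on which row is read.

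The BH3-only genes fell into those that stood higher with GEM and those that hardly moved. PMAIP1 was at 11.55 untreated, 11.91 with VPA, 12.28 with GEM and 11.49 with the combination. BCL2L11 was at 8.77, 8.93, 9.42 and 8.48 in the same order, and BBC3 (PUMA) at 8.65, 8.98, 9.17 and 8.74. In each of the 3, GEM was the highest array and VPA the next. BCL2L11 had the largest distance below untreated among the 34 genes on the combination array, -0.29, and was 1.91-fold lower on that array than on the GEM array. BID, the link from CASP8 to the mitochondria, was higher with GEM alone (log2 ratio 0.30) and not with VPA (-0.03), and BIK was at 0.26 with GEM and -0.22 with VPA. BAD and HRK stayed between -0.08 and 0.15 of untreated on the 3 treated arrays, and BMF, below the array median throughout, between -0.21 and -0.11.

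The effectors shared a direction in all 3 genes. BAX was at 11.02 untreated, 11.43 with VPA, 11.51 with GEM and 10.99 with the combination. BOK, a BAX relative, was at 10.18, 10.46, 10.51 and 10.03. BAK1 was at 10.24, 10.34, 10.59 and 10.17. The single-drug arrays were above the other two by at least 0.40 for BAX, 0.28 for BOK and 0.10 for BAK1. The median ratio of the 3 was 0.28 with VPA, 0.35 with GEM and -0.07 with the combination.

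Among the guardians, BCL2 and BCL2L1 were lower on both single-drug arrays. BCL2 was at 7.94 untreated, 7.66 with VPA, 7.60 with GEM and 8.02 with the combination, close to the array medians. BCL2L1, the gene of BCL-XL, was at 12.53, 12.30, 12.32 and 12.68. MCL1 stayed between 11.81 and 11.95, and BCL2A1, below the array median throughout, between 6.49 and 6.75. The single-drug arrays were below the other two by at least 0.28 for BCL2 and 0.21 for BCL2L1, and by 0.01 for MCL1, and 8873 of 11593 genes at level had a higher GEM ratio than BCL2.

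Effector or BH3-only genes were also set against guardians. The log2 ratio of BAX minus that of BCL2, a common measure of the balance in this family, was 0.68 for VPA over untreated, 0.83 for GEM and -0.12 for the combination. For BAX minus BCL2L1 it was 0.63, 0.70 and -0.19. For PMAIP1 minus MCL1, its main binding partner, it was 0.49, 0.75 and -0.05, and for BCL2L11 minus BCL2L1 it was 0.40, 0.86 and -0.44. In all 4 pairs each drug alone was above untreated and the combination below it. These pairs were chosen after the values were seen, each setting a gene higher with the single drugs against one lower or nearly level. Their direction thus follows from the values above and adds no support. Other pairs differed. With VPA the ratio of BIK (-0.22) was below that of MCL1 (-0.14). With the combination the ratio of BBC3 (0.09) was above that of MCL1 (-0.01). The pairs compare changes in transcript, not protein amounts.

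**Figure D3:**
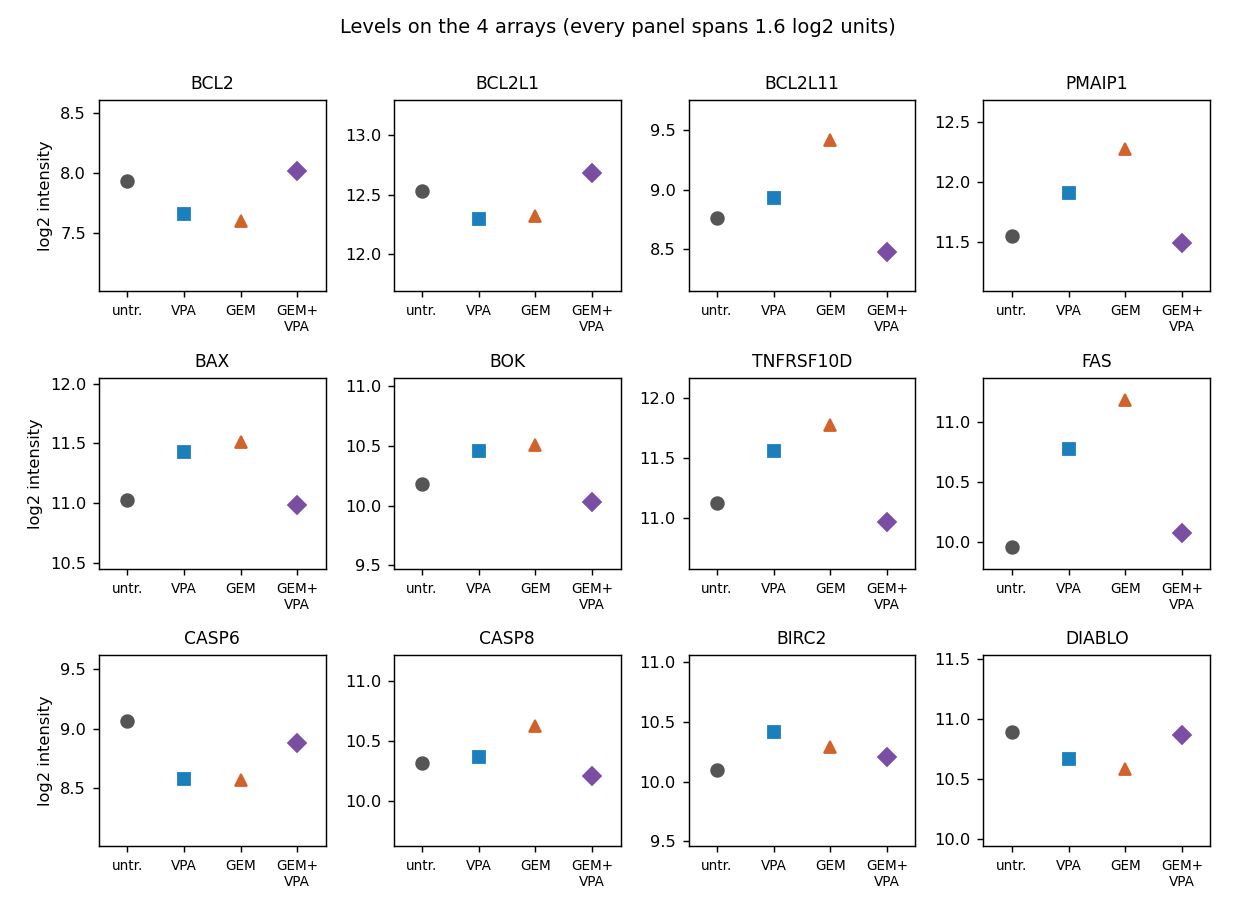
Log2 intensity (y axis) of 12 genes on the untreated, VPA, GEM and combination arrays (x axis), 1 point per array without error bars; every panel spans 1.6 log2 units. FAS, TNFRSF10D, PMAIP1, BCL2L11, BAX and BOK peak on the GEM array, while BCL2, BCL2L1 and CASP6 are lower on both single-drug arrays.

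The caspases did not move together. CASP6, an executioner caspase, was at 9.06 untreated, 8.58 with VPA, 8.57 with GEM and 8.88 with the combination. CASP8, the initiator of the receptor route, was at 10.32, 10.37, 10.63 and 10.21. CASP9, the initiator of the mitochondrial route, was at 9.13, 9.39, 9.35 and 9.05. CASP6 was thus lower with each drug, CASP8 higher mainly with GEM, and CASP9 higher with both. CASP2 was lower with VPA (-0.23) and GEM (-0.32), and CASP10, a relative of CASP8 below the array median throughout, was at 0.03 and 0.27. CFLAR, CASP10 and CASP8 lie close together on chromosome 2. APAF1 stayed within 0.13 of untreated on the 3 treated arrays, and CYCS, cytochrome c, between -0.18 and 0.02. The median ratio over the 7 genes was 0.03 with VPA, 0.13 with GEM and -0.08 with the combination.

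The IAPs and their antagonists also varied little. BIRC2 (cIAP1) was at 10.10 untreated, 10.42 with VPA, 10.29 with GEM and 10.20 with the combination. DIABLO (SMAC) was at 10.89, 10.66, 10.58 and 10.87. XIAP was between -0.17 and -0.14 of untreated on the 3 treated arrays, and HTRA2 between -0.06 and 0.11. BIRC2, a survival gene, was thus higher on the single-drug arrays and DIABLO, a death-promoting gene, lower, the reverse of BCL2 and BAX.

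The 8 measured genes of the 9 listed as p53 targets were FAS, TNFRSF10A, TNFRSF10B, BBC3, PMAIP1, BAX, APAF1 and BID. With GEM over untreated 8 of 8 were above 0, with a median of 0.50, where 8924 of all 18377 genes were above 0. With VPA 6 of 8 were above 0, with a median of 0.34, beside 8843 of all genes, and with the combination 2 of 8, with a median of -0.02, beside 7806. The VPA value was below the GEM value in 8 of 8, with a median difference of -0.28, where 9572 of all 18377 genes were lower on the VPA array. The 5 measured NF-kB target genes (BCL2A1, BIRC2, CFLAR, BCL2L1 and XIAP) had medians of -0.12 with VPA, -0.03 with GEM and -0.15 with the combination, with 2 genes above 0 each time. The p53 list thus stood higher with GEM in every member, and the NF-kB list was mixed. Both lists rest on textbook knowledge and share genes with the roles above. They were chosen with earlier results of these data known and do not hold every target of either factor. The shared direction of the p53 list therefore depends on which targets were listed.

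The 250 bases before each annotated start were searched for the 20-base consensus of p53, which is the same on both strands; its letters include ambiguous bases, so it is given by name. RefSeq windows (GRCh38.p14) were at hand for 27 of the 34 genes. These genes had 50 windows. A match with at most 2 mismatches was found in 1 of the 50, before 1 of the 3 FAS starts, and in 0.561% of all 35114 windows. At most 3 mismatches added PMAIP1 and CFLAR, giving 3 of the 50 windows (6%), against 4.36% of all windows. At most 4 reached BAX and 5 others, giving 10 of the 50 (20%), against 22.1%, so closeness at that level is common. The closest matches of BCL2L11 and BCL2L1 had 5 and 6 mismatches, as have 64.5% and 95.7% of windows or closer. The sequences are shown because these genes moved together, or in the opposite direction for BCL2L1. Each runs 5′ to 3′ along the gene, with the closest match in capitals.
FAS (chr10:88991304-88991333, plus strand): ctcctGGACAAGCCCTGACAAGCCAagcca
PMAIP1 (chr18:59899746-59899995, plus strand): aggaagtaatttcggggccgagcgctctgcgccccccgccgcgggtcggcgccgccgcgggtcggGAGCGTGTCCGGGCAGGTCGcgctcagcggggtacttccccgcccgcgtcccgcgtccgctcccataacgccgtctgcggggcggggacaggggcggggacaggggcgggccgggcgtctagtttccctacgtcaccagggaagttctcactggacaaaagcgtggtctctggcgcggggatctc
BAX (chr19:48954625-48954874, plus strand): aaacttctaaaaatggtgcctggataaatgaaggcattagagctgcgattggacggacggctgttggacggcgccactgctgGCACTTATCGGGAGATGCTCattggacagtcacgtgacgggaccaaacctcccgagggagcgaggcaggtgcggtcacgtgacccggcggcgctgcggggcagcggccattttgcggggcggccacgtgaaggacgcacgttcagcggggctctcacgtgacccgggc
BCL2L11 (chr2:111120664-111120913, plus strand): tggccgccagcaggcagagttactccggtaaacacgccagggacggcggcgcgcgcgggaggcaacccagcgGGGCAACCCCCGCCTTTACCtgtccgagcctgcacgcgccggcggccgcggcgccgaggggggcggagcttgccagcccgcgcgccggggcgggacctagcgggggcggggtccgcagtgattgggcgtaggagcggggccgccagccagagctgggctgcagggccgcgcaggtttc
BCL2L1 (chr20:31723964-31724213, minus strand): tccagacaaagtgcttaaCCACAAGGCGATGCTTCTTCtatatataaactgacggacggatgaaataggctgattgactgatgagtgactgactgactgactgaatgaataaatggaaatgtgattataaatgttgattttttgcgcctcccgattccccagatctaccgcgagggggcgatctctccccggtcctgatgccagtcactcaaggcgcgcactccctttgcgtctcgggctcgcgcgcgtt
The FAS match lies 122 to 103 bases before that start and the PMAIP1 match 185 to 166 bases before its start. A match of letters is a description of the window and no evidence of binding.

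The design also allows the effect of each drug to be read without and with the other, from pairs of arrays that share none. The VPA change without GEM (VPA over untreated) and with GEM (the combination over GEM) had opposite signs in 23 of the 30 genes at level, beside 74.1% of all genes at level. The GEM change had opposite signs without and with VPA in 25 of 30, beside 84.4%. Across these 30 genes the correlation was -0.81 for VPA and -0.89 for GEM, and across all 11808 genes at level -0.69 and -0.89. Apoptosis genes reversed about as often as the rest of the transcriptome. Genes are not independent replicates, and these values describe 4 arrays.

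The departure from additivity, (combination minus GEM) minus (VPA minus untreated), was past 1 in size and below 0 for FAS (-1.92), TNFRSF10D (-1.25), TNFRSF10B (-1.23), PMAIP1 (-1.15) and BCL2L11 (-1.10). That was 5 of the 30 genes at level, against 7.38% of all genes at level below -1. They are the same 5 genes that were past 1.5-fold with GEM over untreated, and both measures use those arrays. Above 1 there were 0 genes, against 13%; either way the share of all genes was 20.4%. At the log2 of 1.5 the count was 12 genes, against 41%, and at the log2 of 3 it was 1, against 7.5%. The largest positive values were 0.80 for CASP6, 0.70 for BCL2 and 0.59 for BCL2L1. The median over the 34 genes was -0.30, beside -0.01 over all genes, so most of these genes were lower with both drugs than the sum of the single-drug ratios. Each drug's effect, averaged over both array pairs that differ by it, was tested with limma (additive model, 1 residual degree of freedom, Benjamini-Hochberg adjustment over 11808 genes). It called 0 of the 30 tested apoptosis genes for VPA and 0 for GEM, with 0 also at an unadjusted p under 0.05 for both drugs, beside 0% of all genes adjusted. Over all genes, 22 (0.186%) had an unadjusted p under 0.05 for VPA and 0 for GEM. The residual of this model holds the departure from additivity itself. Changes of opposite sign also cancel in the average. For FAS, VPA changes of 0.81 and -1.11 averaged -0.15. The 0 calls thus do not show that these genes were unchanged.

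**Figure D4:**
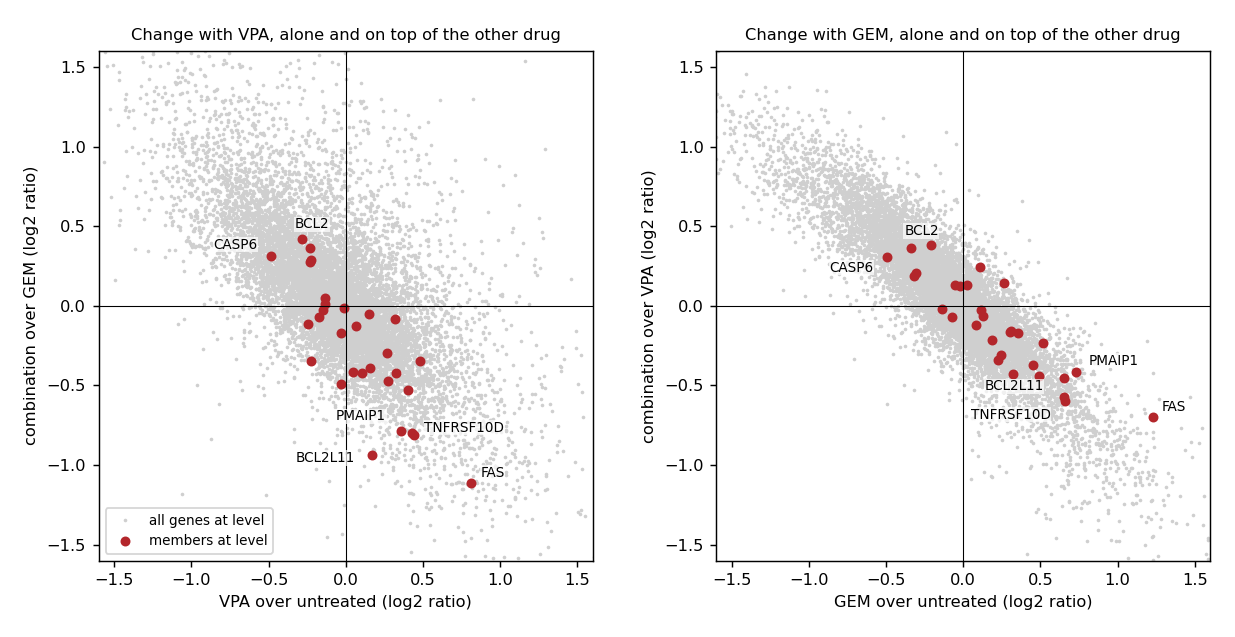
Left, log2 ratio of VPA over untreated (x axis) against the combination over GEM (y axis); right, GEM over untreated against the combination over VPA. Grey points are the 11808 genes at level (points beyond 1.6 are not drawn) and red points the 30 apoptosis genes at level; both run from upper left to lower right, with FAS the red point farthest to the lower right.

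Other genes of the pathway were taken from a list of 62, of which 57 were measured. The 57 include genes below the array median on every array, such as TNF and CASP1, which could not be counted as past a limit. The counts out of 57 and the shares of genes at level thus have unlike bases. With GEM over untreated 1 of the 57 was past 2-fold higher and 0 lower, against 1.48% and 3.01% of genes at level. With VPA it was also 1 higher and 0 lower, against 1.9% and 2.09%. The combination over VPA gave 0 higher and 2 lower, BCL2L15 and CASP4, against 1.48% and 1.68%. The log2 ratio of CASP4 was -1.02 there. It was under 2-fold with each array centred (-0.96) and after quantile normalization (-0.98). The combination over GEM gave 2 higher and 2 lower, against 3.6% and 1.78%. Their median ratio was -0.04 with VPA and -0.001 with GEM, and 19 of 57 had both single-drug arrays above and 19 both below the other two. The wider pathway thus had no common direction. BCL2L15, a less studied BCL2 family gene, was at 7.74 untreated, 9.10 with VPA, 9.32 with GEM and 7.51 with the combination, 2.58-fold and 3.01-fold higher with the single drugs. CASP4, an inflammatory caspase, was at 8.55, 8.96, 9.12 and 7.94, and the combination was its lowest array, 2.26-fold below GEM. FAF1, a FAS-associated factor, was at 11.07, 10.28, 10.18 and 11.18, 2.01-fold higher with the combination than with GEM; after quantile normalization that log2 ratio was 0.93, under 2-fold. NAIP, an IAP family gene with near-identical copies that makes its value uncertain, was at 8.59, 8.07, 7.71 and 8.93.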

How the data were processed

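The deposited table held log2 intensities, normalized by the authors with GeneSpring GX 11.5 (stated in the series' design text) and RMA (named in the submitters' processing notes). RMA equalises probe distributions between arrays and compresses low values. Scanner files were not used here, and no source used here names the genome build of the array rows. The platform annotation gave 1 symbol to 19310 of 28869 rows. Of these rows, 99.84% matched the RefSeq gene table by Entrez ID, and the 35 rows of the apoptosis genes carried current symbols. Rows of a gene were averaged, and ratios are differences of log2 values.

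The members, lists and rules were chosen with earlier results of these data known. Genes given with every array value are those past 2-fold in any of the 6 comparisons and the 2 of each role with the widest range among those at level; other members are given to complete a role. Other pathway genes are those past 2-fold. The limma fit and the 2-fold count were tested on simulated data without a departure from additivity, which does not show what the fit could call in these data. The number of arrays limits the precision. The fit ran in limma 3.58.1 (R 4.3.3), all else in Python 3.11.15 using pandas 2.3.3, and plots used matplotlib 3.10.9.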

Additional observations from a re-analysis of the deposited data

Results flagged for a closer look

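Among the genes named above, those below had changes of at least 1.5-fold in opposite directions when a drug was given alone and when it was added to the other drug. SIVA1, BIRC5 and MOAP1, not named above, also met this limit with both drugs. SIVA1 and BIRC5 were lower and MOAP1 higher with each drug alone. MOAP1 with GEM alone met it only narrowly (0.585). The difference was not tested, since each change rests on a single pair of arrays. FAS was at 0.81 with VPA alone and -1.11 with VPA on top of GEM, and at 1.23 with GEM alone and -0.70 with GEM on top of VPA. TNFRSF10D was at 0.66 with GEM alone and -0.60 with GEM on top of VPA, but at -0.54, under 1.5-fold, with each array centred. BCL2L15 was at 1.37 with VPA alone and -1.81 on top of GEM, and at 1.59 with GEM alone and -1.59 on top of VPA. FAF1 ran the other way, at -0.79 with VPA alone and 1.01 on top of GEM, and at -0.89 with GEM alone and 0.91 on top of VPA. NAIP was at -0.88 with GEM alone and 0.85 on top of VPA. Opposite signs of any size were found in 74.1% of all genes at level for VPA and 84.4% for GEM. The share of all genes with opposite changes of at least 1.5-fold was not computed.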

How the results depend on the processing

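The counts moved with the fold limit. At 1.5-fold in place of 2-fold, 1 gene passed with VPA over untreated, 5 with GEM over untreated, 2 with the combination over VPA and 5 with the combination over GEM, and 12 departures from additivity passed in place of 5. At 3-fold, 0 genes passed with GEM over untreated, 0 with the combination over GEM and 1 departure. Centring each array, quantile normalization of the columns again, another level filter or another choice of row left the 2-fold counts as they were, while departures past 1 numbered 5 to 7. After quantile normalization 6 genes in place of 5 passed 1.5-fold with GEM over untreated and with the combination over GEM. With the combination over VPA the 2 genes past 1.5-fold lower became 1 with each array centred, where TNFRSF10D was at -0.54, and 3 after quantile normalization. The median for VPA over untreated was -0.01 with each array centred and 0.09 after quantile normalization. The count with both single-drug arrays above the other two was 16 to 21 under these settings, and below them 5 to 8; these settings and those for the 1.5-fold counts were chosen after seeing the data. The 80 ratios of named genes moved by at most 0.116. Of all genes past 2-fold, the share that was higher went from 47.6% to 58.4% for VPA over untreated after quantile normalization and from 46.9% to 58.0% for the combination over VPA with each array centred. No paired analysis was possible because each group has 1 array. With 1 array per group, no array could be left out.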
